A study of Mus musculus with 18 samples.

Results

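The replication-dependent histones are the core histones H2A, H2B, H3 and H4 and the linker histone H1 that package newly made DNA. Their genes are short, mostly without introns, and lie in clusters of near-identical copies. Their main transcripts end in a stem-loop in place of a poly-A tail, which the stem-loop binding protein Slbp recognises, and they are made in S phase and degraded when replication stops. A smaller share of their transcripts carries a poly-A tail, mainly in cells that no longer divide. The ventricle of an adult mouse consists largely of such cells, with cardiomyocytes as the bulk of its mass.

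Left ventricles of male C57BL/6 mice aged 20 weeks were compared between 5 mORF4/NBDY knockout hearts, numbered 6 to 10, and 4 wild-type hearts, numbered 1 to 4. NBDY is a microprotein that binds the mRNA decapping machinery, and the sources used here do not say how the knockout allele was made. Each untreated heart gave a library of poly-A RNA and a library of ribosome footprints, the mRNA fragments that translating ribosomes protect, so 18 libraries were used. Because the RNA was selected by its poly-A tail, the RNA values are taken to cover mainly tailed histone transcripts, though tails were not measured. The histone genes were taken as every row of the deposited tables whose older Ensembl symbol begins with Hist1h to Hist4h, which gave 60 of 10597 rows. They were 3 rows of H1, 19 of H2a, 16 of H2b, 11 of H3 and 11 of H4. By symbol 49 rows belonged to Hist1, on chromosome 13, 9 to Hist2, on chromosome 3, and 2 to Hist3, on chromosome 11 (positions in GRCm38). Hist1h2al, which lies apart from the other Hist1 rows at chr13:51200084-51203066, is a transcribed pseudogene in RefSeq.

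The deposited values are gene read counts divided by a factor for each library and are called normalized reads here. They are not divided by gene length. Summed over the listed genes, the RNA libraries held 15.8 to 20.2 M reads (M stands for 1e6) in knockout hearts and 11.2 to 12.4 M in wild-type hearts, without overlap, so genotype and a batch of RNA libraries cannot be told apart. Footprint libraries held 22.9 to 40.8 M reads in knockout hearts and 6.67 to 36.7 M in wild-type hearts, with wild-type heart 2 the shallowest. Nbdy, the targeted gene, had 13.8, 16.3, 11.3, 10.9 and 19.0 normalized footprint reads in the knockout hearts, against 107, 355, 151 and 119 in the wild-type hearts. Every knockout heart lay below every wild-type heart.

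Promoters from the classes whose RNA moved are shown first, as background. Histone classes carry different upstream elements, and a link between these elements and the RNA changes was not tested. Sequences are from RefSeq (GRCm38.p6) and end at the base before the annotated start. Capitals mark, on either strand, the H1 box AAACACA, the CCAAT box, the TATA box TATAAA, the octamer ATTTGCAT, which the factor Oct-1 binds in H2B promoters, and GGTCCG, the core of site II of H4 promoters, which the factor Hinfp binds. No base belonged to more than 1 of these matches. The 3 H1 genes, the H2b and H4 genes named below for a lower footprint-to-RNA ratio, and the H4 gene Hist1h4m with the smallest adjusted p of its class in RNA are given, with the divergent pair Hist1h2aa and Hist1h2ba last.
Hist1h1c, chr13:23738682-23738806, plus strand: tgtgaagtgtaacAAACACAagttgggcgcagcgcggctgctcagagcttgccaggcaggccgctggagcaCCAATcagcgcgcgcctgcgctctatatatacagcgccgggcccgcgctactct
Hist1h1d, chr13:23554907-23555031, plus strand: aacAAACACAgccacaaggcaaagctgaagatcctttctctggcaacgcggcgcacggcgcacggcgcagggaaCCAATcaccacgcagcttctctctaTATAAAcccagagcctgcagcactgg
Hist1h1e, chr13:23622559-23622683, minus strand: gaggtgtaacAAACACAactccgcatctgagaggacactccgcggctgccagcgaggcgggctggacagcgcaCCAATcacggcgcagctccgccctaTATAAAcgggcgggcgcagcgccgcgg
Hist1h4c, chr13:23698459-23698518, minus strand: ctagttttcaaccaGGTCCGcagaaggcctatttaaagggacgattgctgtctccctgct
Hist1h4d, chr13:23581508-23581567, plus strand: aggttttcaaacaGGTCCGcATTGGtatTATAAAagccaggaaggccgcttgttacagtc
Hist1h4m, chr13:21811686-21811745, plus strand: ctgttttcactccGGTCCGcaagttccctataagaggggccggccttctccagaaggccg
Hist2h2bb, chr3:96269540-96269699, plus strand: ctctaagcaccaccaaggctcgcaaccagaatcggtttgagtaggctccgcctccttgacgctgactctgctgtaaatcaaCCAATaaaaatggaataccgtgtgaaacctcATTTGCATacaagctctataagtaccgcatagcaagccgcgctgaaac
Hist1h2aa, chr13:23934187-23934436, plus strand: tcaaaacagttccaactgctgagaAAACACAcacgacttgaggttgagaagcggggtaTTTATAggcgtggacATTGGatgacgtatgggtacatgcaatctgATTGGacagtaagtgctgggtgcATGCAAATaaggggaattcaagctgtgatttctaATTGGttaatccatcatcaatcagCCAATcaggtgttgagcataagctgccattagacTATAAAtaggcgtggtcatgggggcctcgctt

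Of the 60 rows, 56 matched a RefSeq promoter, and the 250 bases before the start were searched in each. The H1 box was found in 3 of 3 H1 promoters, 2 of 18 H2a and 1 of 14 H2b promoters, and in no H3 or H4 promoter, against 7.20% of 27025 genes. The site II core was found in 8 of 11 H4 promoters and 1 of 10 H3 promoters, and in no other histone promoter, against 7.69% of genes. The octamer was found in 7 of 18 H2a and 6 of 14 H2b promoters and in none of the other classes, against 1.81% of genes. CCAAT was found in all 3 H1, 18 H2a and 14 H2b promoters, 8 of 10 H3 and 3 of 11 H4 promoters, against 37.5% of genes. TATAAA was found in 27 of 56 histone promoters, against 14.3% of genes. H2a and H2b genes often stand head to head and share 1 window, so their counts are not independent, and a match is a description of letters only.

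Poly-A RNA of the histones differed between knockout and wild-type hearts by class. All 11 H4 rows, all 3 H1 rows and 15 of 16 H2b rows rose in knockout hearts, no H3 row of 11 passed the test, and of 19 H2a rows 2 rose and 2 fell. The median log2 fold change, knockout over wild type, was 1.21 for H4, 0.65 for H1, 0.54 for H2b, 0.42 for H3 and -0.10 for H2a, against 0.01 for all genes. Over all 60 rows 31 rose, 2 fell and 27 did not pass, with a median of 0.51 (limma on log2 of normalized reads plus 1, adjusted p below 0.05 over 10580 genes). Of all genes tested 24.3% rose and 25.1% fell, so 2 lower rows in 60 is well under the share of all genes that fell, and 31 is above the share that rose. In 30 rows every knockout heart lay above every wild-type heart, as did 19.8% of all genes, and in 1 row every knockout heart lay below, as did 20.6% of all genes.

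**Figure D1:**
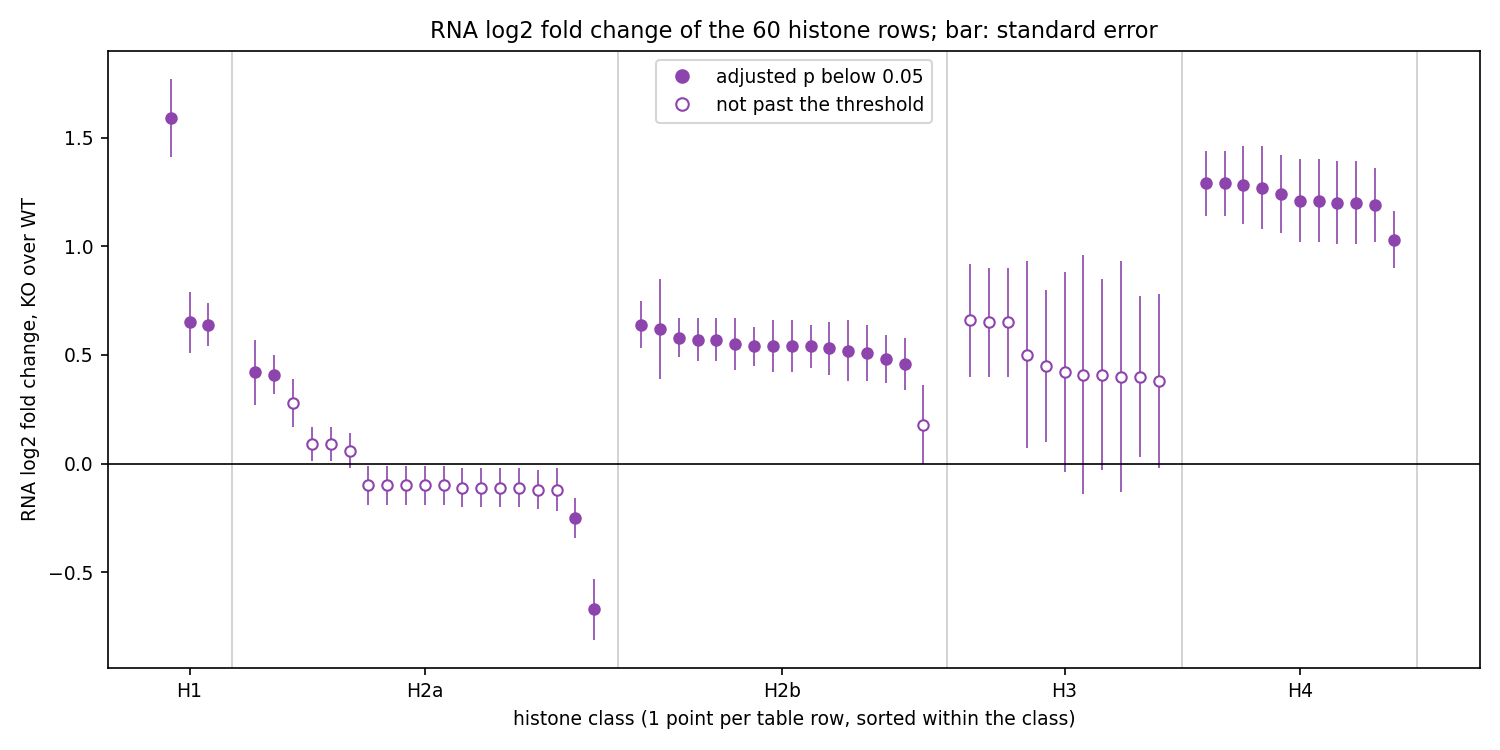
RNA log2 fold change of each histone row, knockout over wild type, by class, with its standard error (5 knockout and 4 wild-type hearts). Filled points passed an adjusted p of 0.05. All 11 H4 rows lie between 1.03 and 1.29, the H2b rows between 0.18 and 0.64, and most H2a rows lie just below 0.

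The rows are not separate measurements. Whole reads could be recovered from the normalized values, and the RNA reads of 21 of 60 histone rows were within 5% of those of another histone row in every one of the 9 hearts. Over all genes 2.32% of 10582 rows with a mean of at least 10 reads were that close to another row. The pairs Hist2h2aa1 and Hist2h2aa2, Hist1h2bq and Hist1h2br, Hist1h4a and Hist1h4b, Hist1h4m and Hist1h4n, Hist2h3c1 and Hist2h3c2, and Hist1h2ao and Hist1h2ap had identical reads in all 9 hearts. Counting 1 row for each set of near-equal rows left 45 rows, of which 27 rose and 2 fell, with a median of 0.53. The H2a median was then 0.06 over 9 rows, in place of -0.10 over 19, with 2 rows higher and 2 lower. With a tolerance of 20% the 11 H4 rows formed 3 sets, the 16 H2b rows 6, the 19 H2a rows 7 and the 11 H3 rows 8, while the 3 H1 rows stayed apart. The sources used here do not say how reads that match several copies were counted, so rows counted within a class are not independent.

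The largest set held 10 H2a rows, those from Hist1h2ab to Hist1h2ai with Hist1h2ao and Hist1h2ap. Hist1h2ao had 465, 460, 478, 353 and 359 RNA reads in knockout hearts 6 to 10, against 226, 271, 268 and 300 reads in wild-type hearts 1 to 4. H2afx, which encodes the variant H2A.X that is phosphorylated at DNA breaks and whose gene lies elsewhere, had 464, 462, 474, 360 and 354 reads in the knockout hearts, against 217, 272, 258 and 285 in the wild-type hearts. H2afx thus tracked the set heart by heart, and 9 histone rows were within 5% of it in all 9 hearts. H2afx itself had a log2 fold change of -0.06 (limma adjusted p = 0.589). In footprints the likeness was gone. H2afx had 193, 132, 87, 70 and 72 footprint reads in the knockout hearts, against 148, 24, 60 and 119 in the wild-type hearts, while Hist1h2ao and Hist1h2ap had 0 in every heart.

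**Figure D2:**
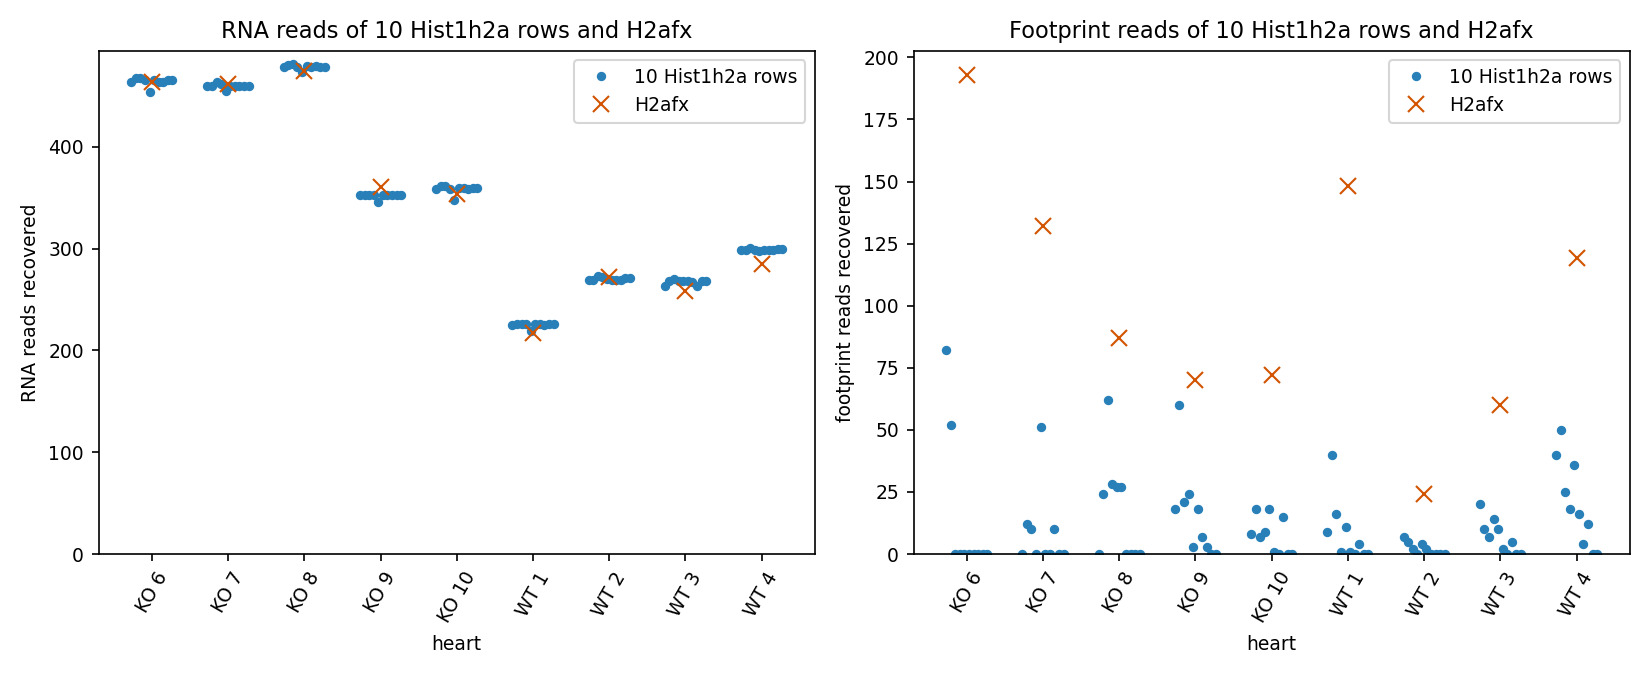
Recovered reads of the 10 near-equal Hist1h2a rows (blue points) and of H2afx (crosses) in each heart, RNA on the left and footprints on the right. The RNA reads of all 11 rows coincide, between 454 and 467 for the histone rows of knockout heart 6, while the footprint reads of H2afx lie above those of the histone rows in every heart.

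H1 linker histones bind the DNA between nucleosomes. Hist1h1c had 404, 424, 369, 412 and 360 normalized RNA reads in the knockout hearts, against 270, 234, 295 and 216 in the wild-type hearts. Hist1h1d had 112, 95.7, 102, 102 and 81.0 in the knockout hearts, against 65.4, 53.0, 76.0 and 56.8 in the wild-type hearts. Hist1h1e had 86.7, 52.4, 65.1, 66.2 and 57.6 in the knockout hearts, against 22.3, 23.1, 19.0 and 18.9 in the wild-type hearts. In all 3 genes every knockout heart lay above every wild-type heart. The RNA log2 fold changes were 0.64 ± 0.10 for Hist1h1c, 0.65 ± 0.14 for Hist1h1d and 1.59 ± 0.18 for Hist1h1e (SE; limma adjusted p = 0.000235, 0.00276 and 2.83e-05). Leaving out any 1 heart left the Hist1h1e change between 1.49 and 1.67. Behind the Hist1h1e values stood 64 to 115 RNA reads in knockout hearts and 14 to 17 in wild-type hearts.

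H4 pairs with H3 in the core of the nucleosome, and most of its gene copies encode the same protein. Hist1h4h had 171, 126, 182, 176 and 152 normalized RNA reads in the knockout hearts, against 75.2, 77.4, 87.4 and 73.1 in the wild-type hearts. Hist1h4j had 124, 86.0, 126, 95.2 and 98.1 in the knockout hearts, against 32.0, 42.1, 54.4 and 44.6 in the wild-type hearts. Hist1h4m and Hist1h4n, with identical reads, had 107, 70.6, 103, 89.4 and 99.0 in the knockout hearts, against 36.2, 34.0, 43.0 and 36.5 in the wild-type hearts. None of these groups overlapped, and knockout heart 7 was the lowest of its genotype in each. Their log2 fold changes were 1.03 ± 0.13, 1.28 ± 0.18 and 1.29 ± 0.15 (SE; limma adjusted p = 4.59e-05, 0.000112 and 3.73e-05). Hist1h4k and Hist1h4c, both at 1.21 ± 0.19 (SE; limma adjusted p = 0.000307 and 0.000263), had 27.8, 40.8 and 53.2 normalized RNA reads each in wild-type hearts 1 to 3, so they are largely one measurement. The H4 rows not named by the rule, Hist1h4a, Hist1h4b, Hist1h4f and Hist1h4i, were between 1.19 and 1.24. Summed over the 11 rows, H4 reached 1067 ± 151 normalized RNA reads in knockout hearts (SD, n = 5) and 459 ± 79.4 in wild-type hearts (SD, n = 4), a ratio of 2.32.

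H2B and H2A form the dimers that flank the H3 and H4 core. Hist1h2bc had 580, 471, 465, 456 and 461 normalized RNA reads in the knockout hearts, against 315, 357, 353 and 310 in the wild-type hearts. Hist1h2bq and Hist1h2br, with identical reads, had 424, 338, 321, 330 and 300 in the knockout hearts, against 224, 242, 224 and 225 in the wild-type hearts. The groups did not overlap, and knockout heart 6 was the highest in each. The log2 fold changes were 0.54 ± 0.09 and 0.57 ± 0.10 (SE; limma adjusted p = 0.000326 and 0.000466). The 15 H2b rows that rose lay between 0.46 and 0.64, and the remaining row, Hist3h2ba, was at 0.18 (limma adjusted p = 0.426). Summed over 16 rows, H2b reached 3767 ± 549 normalized RNA reads in knockout hearts (SD, n = 5) and 2580 ± 152 in wild-type hearts (SD, n = 4), a ratio of 1.46.

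H2A is the partner of H2B in those dimers, and most of its rows did not pass the test. The summed RNA signal of its 19 rows was 5855 ± 509 normalized reads in knockout hearts (SD, n = 5) and 6084 ± 583 in wild-type hearts (SD, n = 4), a ratio of 0.962 with overlapping groups. Hist2h2aa1 and Hist2h2aa2 had 514, 469, 527, 437 and 435 each in the knockout hearts, against 418, 452, 427 and 495 in the wild-type hearts (log2 fold change 0.09, limma adjusted p = 0.390). Hist1h2al, the pseudogene row, had 480, 431, 493, 401 and 388 in the knockout hearts, against 399, 410, 410 and 455 in the wild-type hearts (0.06, limma adjusted p = 0.568). Neither passed the test, and their groups overlapped. Hist1h2an rose, with 210, 198, 202, 191 and 202 in the knockout hearts, against 142, 148, 137 and 180 in the wild-type hearts (0.41 ± 0.09, SE; limma adjusted p = 0.00357). Hist3h2a also rose (0.42, limma adjusted p = 0.0309), though its groups overlapped. Hist1h2ak fell narrowly, with 296, 250, 307, 236 and 256 in the knockout hearts, against 291, 327, 314 and 342 in the wild-type hearts (-0.25 ± 0.09, SE; limma adjusted p = 0.0451). Its call was lost without any 1 of hearts 2, 3, 4, 7, 9 and 10, at adjusted p up to 0.114.

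Hist1h2aa and Hist1h2ba moved in opposite directions. They encode the H2A and H2B forms known from testis, TH2A and TH2B, and stand head to head on chromosome 13 with 280 bases between them, most of which is the last sequence printed above. Hist1h2aa had 143, 121, 164, 104 and 119 normalized RNA reads in the knockout hearts, against 175, 223, 201 and 223 in the wild-type hearts. Hist1h2ba had 271, 223, 226, 229 and 200 in the knockout hearts, against 149, 152, 160 and 150 in the wild-type hearts. Neither pair of groups overlapped. Hist1h2aa fell by 0.67 ± 0.14 and Hist1h2ba rose by 0.58 ± 0.09 on the log2 scale (SE; limma adjusted p = 0.00172 and 0.000353). Leaving out any 1 heart kept Hist1h2aa between -0.76 and -0.59. In footprints neither row reached the minimum mean of 10, with 7.63 ± 9.04 normalized reads in knockout hearts (SD, n = 5) and 5.23 ± 6.70 in wild-type hearts (SD, n = 4) for Hist1h2aa. Whether their RNA reads came from these genes or from other copies was not tested.

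H3 rows held few RNA reads. Hist2h3c1 and Hist2h3c2, with identical reads, had 55.0, 54.5, 27.6, 38.1 and 43.2 normalized RNA reads in the knockout hearts, against 19.5, 24.5, 29.1 and 36.5 in the wild-type hearts. The groups overlapped, and the log2 fold change of 0.65 ± 0.25 missed the threshold (SE; limma adjusted p = 0.0501). Hist2h3b was at 0.66 ± 0.26 (SE; limma adjusted p = 0.0515). All 3 passed with edgeR on recovered reads, at adjusted p from 0.0411 to 0.0467, and over all alternatives their adjusted p ranged from 0.0184 to 0.229. The 8 Hist1h3 rows had means of 11.3 to 15.2 normalized RNA reads in knockout hearts and 8.87 to 11.8 in wild-type hearts, with log2 fold changes of 0.38 to 0.50. None passed, and quantile normalization put the median of the 11 rows at 0.13.

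**Figure D3:**
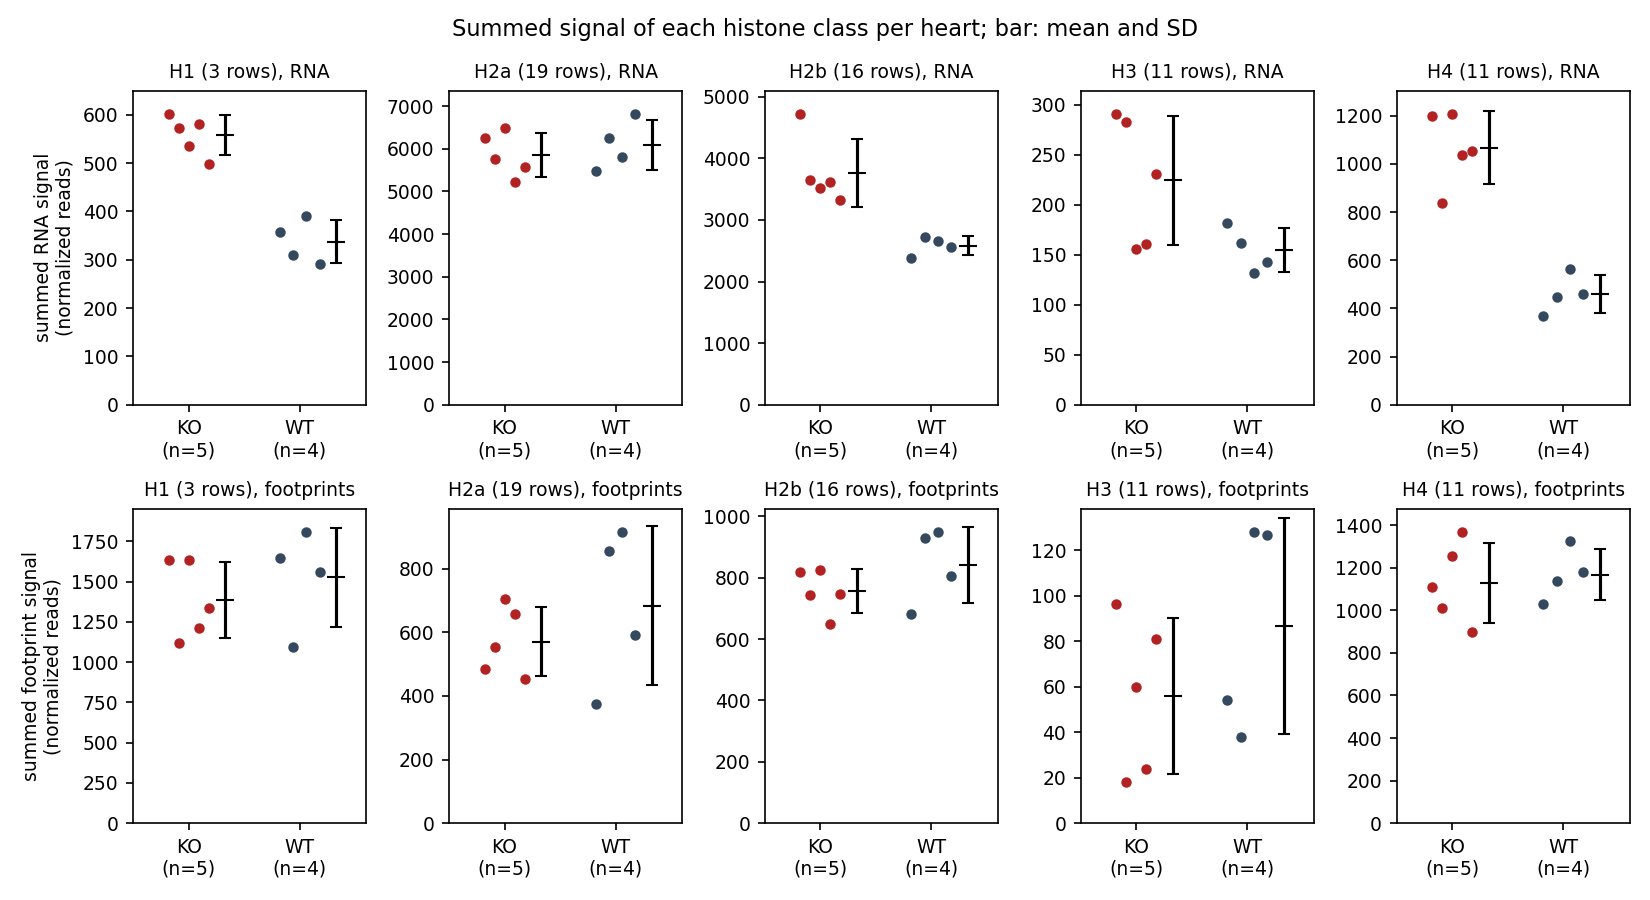
Summed normalized reads of each histone class per heart, RNA above and footprints below, knockout hearts left of wild-type hearts, with mean and SD beside the points. In RNA the knockout hearts lie above all wild-type hearts for H1, H2b and H4, and in footprints the groups overlap in all 5 classes.

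Ribosome footprints were measured for fewer of the histone rows. Of 32 rows with a mean of at least 10 normalized footprint reads, none passed the test in either direction with limma, edgeR or DESeq2, and 1 had an unadjusted p below 0.05 in limma, 2 in edgeR and 1 in DESeq2. Of all 9976 genes 505 had an unadjusted p below 0.05 in limma, 481 in edgeR and 535 in DESeq2, so the histone counts are near the share of all genes. With limma's adjusted p 0% of all genes rose and 0.02% fell, so the footprint libraries gave almost no calls for any gene. The median log2 fold change of the 32 rows was -0.18, against 0.00 for all genes, and it turned to 0.03 with quantile normalization, 0.07 with edgeR and 0.10 with DESeq2. Summed H4 footprints were 1129 ± 187 normalized reads in knockout hearts (SD, n = 5) and 1169 ± 122 in wild-type hearts (SD, n = 4), a ratio of 0.966. Summed H1 footprints were 1387 ± 237 in knockout hearts and 1525 ± 307 in wild-type hearts (SD, n = 5 and 4), a ratio of 0.909. The ratios were 0.899 for H2b, 0.833 for H2a and 0.644 for H3, and the groups overlapped in every class.

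Footprint reads were spread over the copies differently from RNA reads. Of 34 histone rows with a mean of at least 10 recovered footprint reads, none was within 5% of another in all 9 hearts. Over all genes only 0.02% of 9991 such rows were that close in footprints, so this count alone is not particular to the histones. Apart from the 34 histone rows, 7 rows, among them Hist2h2aa1, Hist2h2aa2, Hist1h2bq, Hist2h3c1 and Hist2h3c2, had 0 footprint reads in all 9 hearts. A value of 0 allows up to 3 reads in each library by counting error. The 60 rows held 40807 footprint reads over the 9 hearts, and 5 rows held 58.1% of them. These were Hist1h1c with 8985, Hist1h1e with 4598, Hist1h4d with 4392, Hist3h2a with 2990 and Hist2h2bb with 2736. By class 37.0% of the reads fell to H1, 28.0% to H4, 19.2% to H2b, 14.0% to H2a and 1.80% to H3. These are totals of reads, not levels per length.

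**Figure D4:**
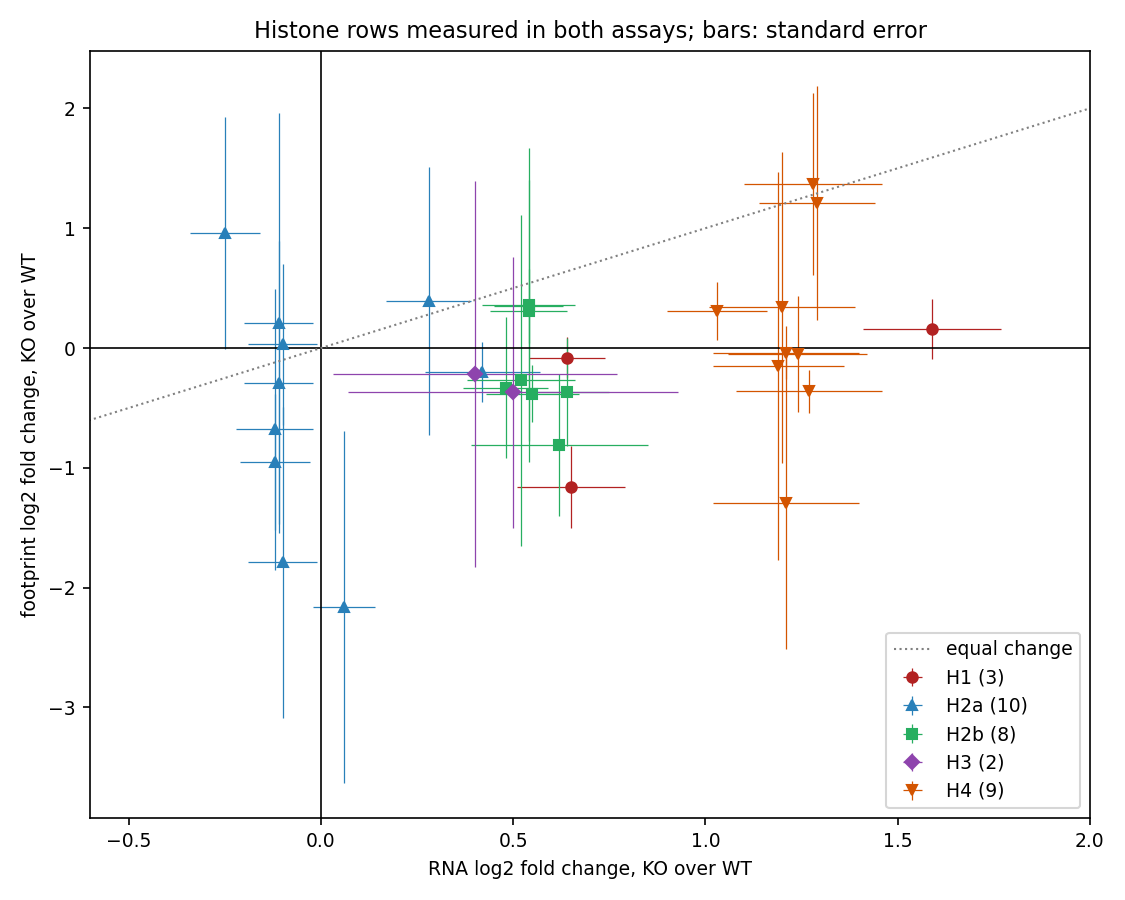
RNA log2 fold change (horizontal) against footprint log2 fold change (vertical), both knockout over wild type, for the 32 histone rows measured in both assays, with standard errors. Of the 32 points 27 lie below the dotted line of equal change, and the H4 rows spread between -1.29 and 1.37 in footprints at nearly the same RNA change.

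Translational efficiency, footprint signal divided by RNA signal in each heart, was lower in knockout hearts for 6 of 32 histone rows and higher for none, with limma's genotype by assay interaction. The 6 were the 3 H1 genes, Hist1h4c, Hist1h4d and Hist2h2bb. Leaving out any 1 heart kept the calls of Hist1h1d, Hist1h1e, Hist1h4c and Hist1h4d, at adjusted p of at most 0.0389 in limma. Of all 9974 genes 6.55% were lower and 7.83% higher. The median log2 fold change of the 32 rows was -0.80, with 27 rows below 0, against a median of -0.02 for all genes. The RNA values enter the ratio, so a lower ratio of a gene whose RNA rose is not independent of the RNA result, and the RNA libraries differed in depth by genotype. The RNA values are taken to cover mainly tailed histone transcripts, while footprints can also come from transcripts that end in the stem-loop. A different tailed share would thus move the ratio without a change in translation, and this was not tested. The ratio also sets footprint reads that differ between copies against RNA reads that copies largely share. For a single copy it need not describe that gene's own transcripts. Hist1h4c and Hist1h4k had 93.0 and 95.8 normalized RNA reads in knockout hearts, for example, but mean ratios of 2.75 and 0.123.

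In Hist1h1d, whose RNA rose, footprints were low in the knockout hearts. It had 132, 54.8, 116, 63.2 and 176 normalized footprint reads in the knockout hearts, against 179, 235, 282 and 204 in the wild-type hearts. Every knockout heart lay below every wild-type heart, but the footprint change of -1.16 ± 0.34 did not pass over all genes (SE; limma adjusted p = 0.851). Its footprint-to-RNA ratio was 1.18, 0.572, 1.13, 0.620 and 2.17 in the knockout hearts, against 2.73, 4.43, 3.71 and 3.59 in the wild-type hearts. Efficiency fell by 1.81 ± 0.40 on the log2 scale (SE; limma adjusted p = 0.00470).

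For the other linker histones the footprints overlapped between genotypes. Hist1h1c had 959, 723, 960, 788 and 745 normalized footprint reads in the knockout hearts, against 975, 638, 1000 and 948 in the wild-type hearts. Hist1h1e had 542, 342, 558, 363 and 414 in the knockout hearts, against 492, 217, 525 and 407 in the wild-type hearts. Wild-type heart 2, the shallowest footprint library, was the lowest heart for both. The ratio for Hist1h1e was 6.25, 6.53, 8.56, 5.48 and 7.19 in the knockout hearts, against 22.1, 9.42, 27.6 and 21.5 in the wild-type hearts. The ratio for Hist1h1c was 1.70 to 2.60 in the knockout hearts and 2.73 to 4.38 in the wild-type hearts. Neither pair of ratio groups overlapped, and efficiency fell by 1.43 ± 0.34 for Hist1h1e and by 0.72 ± 0.20 for Hist1h1c (SE; limma adjusted p = 0.00751 and 0.0183). The Hist1h1c call was lost without heart 4, 7 or 9, at adjusted p = 0.0778, 0.0542 and 0.0509.

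Hist1h4d and Hist1h4c were the H4 copies with most footprint reads beside Hist1h4h. Hist1h4d had 427, 375, 362, 469 and 369 normalized footprint reads in the knockout hearts, against 392, 618, 508 and 558 in the wild-type hearts. Its RNA was 69.4, 48.2, 72.0, 61.3 and 71.1 in the knockout hearts, against 19.5, 31.2, 30.4 and 24.4 in the wild-type hearts. The ratio was 5.03 to 7.77 in the knockout hearts and 16.7 to 22.9 in the wild-type hearts, without overlap. Hist1h4c had 208, 234, 269, 321 and 222 footprint reads in the knockout hearts, against 282, 193, 301 and 254 in the wild-type hearts, and its ratio was 1.97 to 3.69 in the knockout hearts and 4.74 to 10.1 in the wild-type hearts. Efficiency fell by 1.63 ± 0.26 for Hist1h4d and by 1.25 ± 0.29 for Hist1h4c (SE; limma adjusted p = 0.000425 and 0.00671). Hist1h4h had 259, 231, 390, 330 and 203 footprint reads in the knockout hearts, against 196, 183, 316 and 212 in the wild-type hearts, and its efficiency change of -0.72 ± 0.28 did not pass (SE; limma adjusted p = 0.0963), though it did with the heart as a replicate block (adjusted p = 0.0479, with 0.0479 to 0.207 over all alternatives). Hist1h4j, with 36.0 ± 16.7 footprint reads in knockout hearts (SD, n = 5) and 14.2 ± 8.90 in wild-type hearts (SD, n = 4), was at 0.10 ± 0.72 in efficiency (SE; limma adjusted p = 0.947). The copies with few footprint reads had wide errors, and none of them passed.

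Hist2h2bb, the H2b gene of the Hist2 cluster with an octamer in its promoter, had 192, 301, 294, 196 and 314 normalized footprint reads in the knockout hearts, against 261, 469, 357 and 274 in the wild-type hearts. Its RNA rose by 0.55 ± 0.12 and its efficiency fell by 0.93 ± 0.27 (SE; limma adjusted p = 0.00209 and 0.0281). The ratio groups overlapped by 1 heart, at 1.67 to 3.45 in the knockout hearts and 3.38 to 6.78 in the wild-type hearts. The efficiency call was lost without heart 2, 3, 6 or 9, at adjusted p from 0.0715 to 0.0872, and with quantile normalization (adjusted p = 0.0615). Hist1h2bc, with 336, 205, 329, 200 and 147 footprint reads in the knockout hearts, against 223, 100, 226 and 217 in the wild-type hearts, was at -0.19 ± 0.34 in efficiency (SE; limma adjusted p = 0.769). The 10 H2a rows tested ranged from -2.22 to 1.21 in efficiency and none passed.

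**Figure D5:**
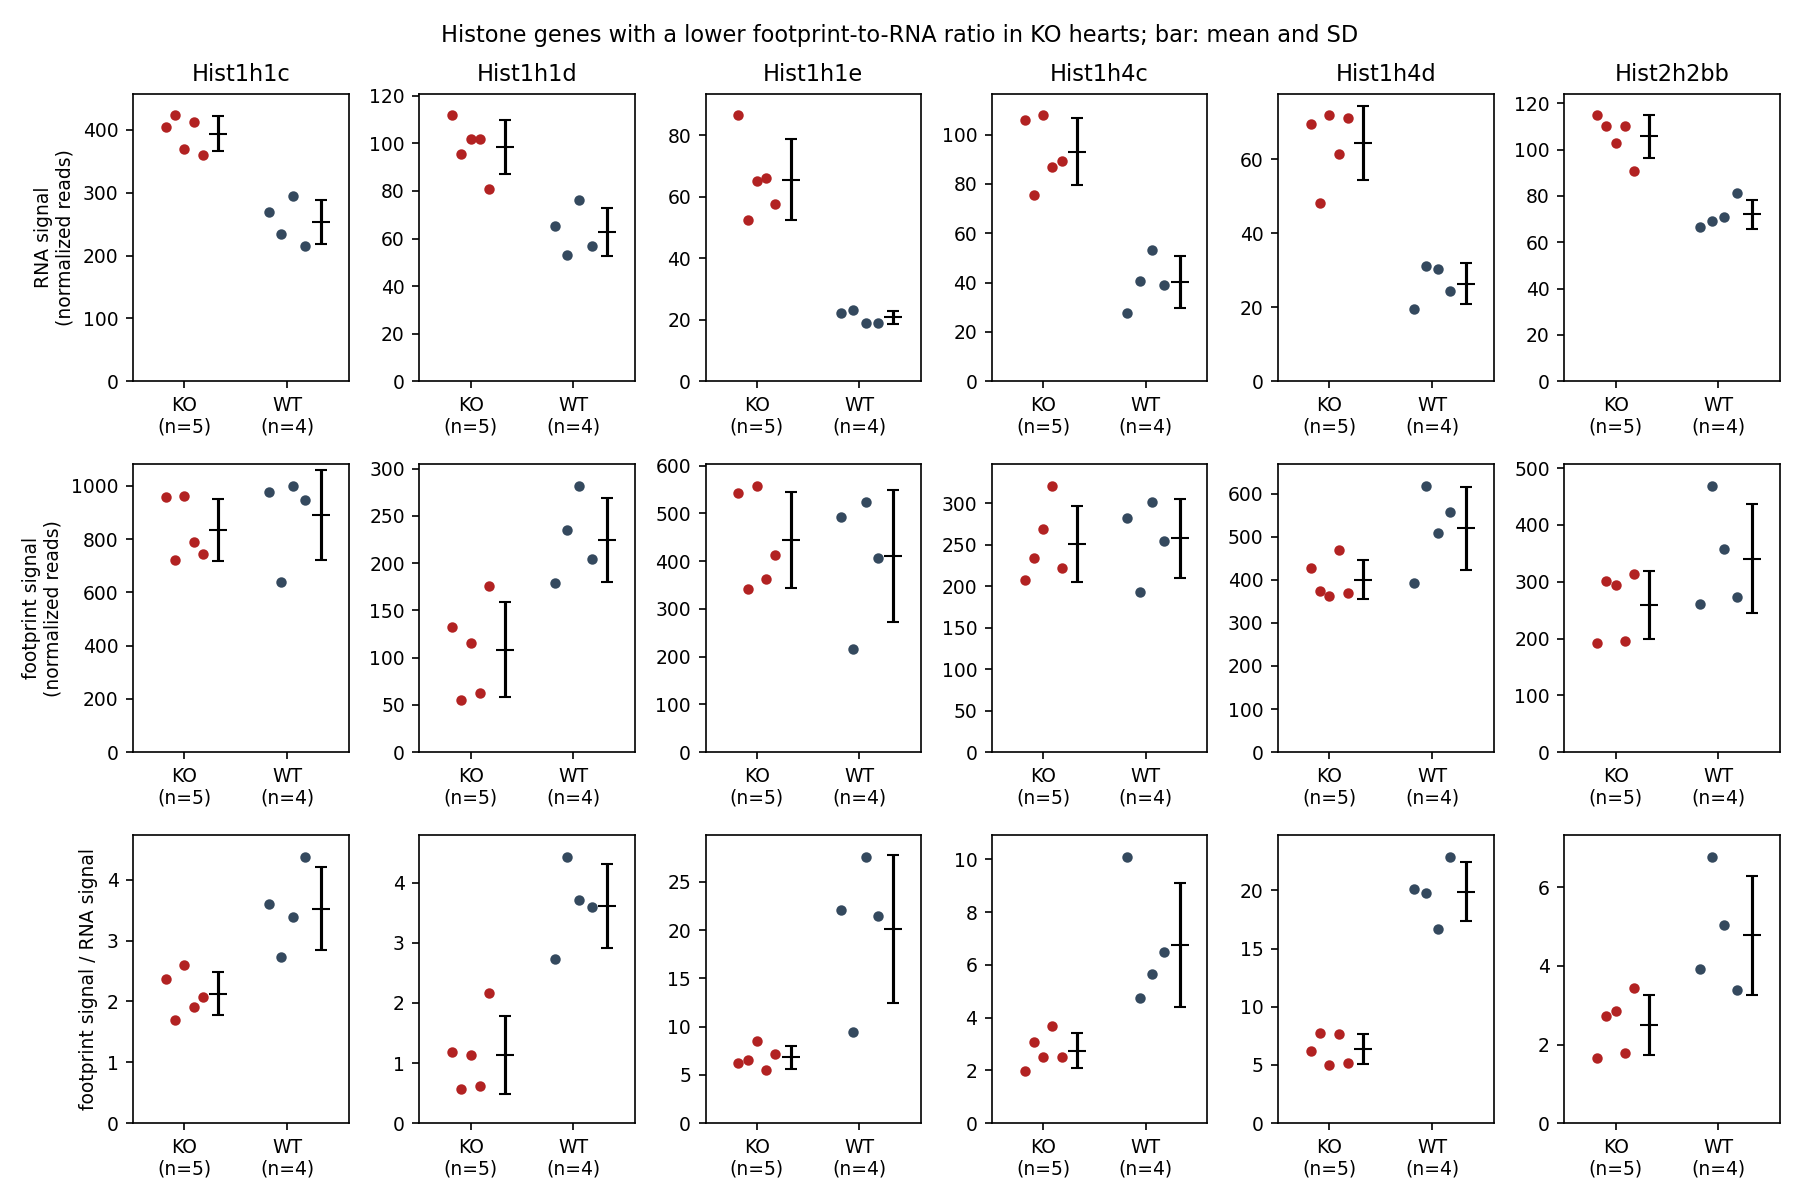
RNA signal (top), footprint signal (middle) and their ratio (bottom) per heart for the 6 histone genes with a lower ratio in knockout hearts, knockout left of wild type, with mean and SD. RNA is higher in every knockout heart, footprints overlap except for Hist1h1d, and the ratio of Hist1h4d is 5.03 to 7.77 in knockout hearts and 16.7 to 22.9 in wild-type hearts.

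The replacement variants are mostly made outside S phase from ordinary poly-A transcripts. In RNA 5 of 10 were higher in knockout hearts (50%, against 24.3% of all genes), with a median of 0.20 over the 10. Another 2 were lower (20%, near the 25.1% of all genes). H3f3a, 1 of a pair of genes for H3.3, rose by 0.58 (1911 ± 183 normalized RNA reads in knockout hearts and 1279 ± 117 in wild-type hearts, SD, n = 5 and 4; limma adjusted p = 0.000123). H3f3b, the other H3.3 gene, named after its values were seen, fell by 0.29 (1060 ± 81.1 in knockout hearts and 1299 ± 79.1 in wild-type hearts, SD, n = 5 and 4; limma adjusted p = 0.00354), with every knockout heart below every wild-type heart. Cenpa, the centromeric H3 variant, rose by 0.59 (252 ± 14.8 in knockout hearts and 167 ± 13.1 in wild-type hearts, SD, n = 5 and 4; limma adjusted p = 0.000127). None of the 9 tested in footprints or efficiency passed.

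Among factors that act on histone transcripts and proteins, more fell than rose in RNA. Of all genes tested 24.3% rose and 25.1% fell. Of 25 genes for histone pre-mRNA 3′ processing and decay 5 rose (20%, near the share of all genes) and 11 fell (44%), with a median of -0.13. Fip1l1, a subunit of the polyadenylation complex, fell by 1.12, with 646 ± 50.5 normalized RNA reads in knockout hearts and 1402 ± 67.2 in wild-type hearts (SD, n = 5 and 4; limma adjusted p = 3.51e-07). That complex serves ordinary mRNAs, so the list is not specific to histones. Snrpf, a core protein of the spliceosomal snRNPs and of the U7 snRNP, fell by 0.75 (limma adjusted p = 2.49e-06). Slbp was at -0.10 (limma adjusted p = 0.589), chosen after its values were seen. Of 21 genes for histone transcription and chaperones 2 rose (9.52%) and 11 fell (52.4%), with a median of -0.20. The chaperones Nap1l1 and Ubn1 fell by 0.81 and 0.56 (limma adjusted p = 7.51e-06 and 7.72e-06). None of these genes passed in footprints. In efficiency 2 of the 25 processing genes, or 8%, were higher, near the 7.83% of all genes, as were 5 of the 21 genes for transcription and chaperones, or 23.8%, and none of either list was lower.

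Of 19 S phase and DNA replication genes with a row, 4 rose (21.1%, against 24.3% of all genes) and 1 fell (5.26%, against 25.1% of all genes) in RNA, with a median of 0.17. Rpa1, which coats single-stranded DNA, rose by 0.34, and Rfc1, which helps load the sliding clamp, fell by 0.26 (limma adjusted p = 0.00138 and 0.00531). None passed in footprints or efficiency. Of 7 markers of cycling cells 1 had a row. This gene, Mki67, fell by 0.74 (190 ± 55.5 normalized RNA reads in knockout hearts and 322 ± 101 in wild-type hearts, SD, n = 5 and 4; limma adjusted p = 0.0319). Of 18 mitosis genes 2 had a row, Mki67 and Cenpf, and Cenpf was at 0.57 (limma adjusted p = 0.0971).

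In bulk tissue fewer cells of a type and less RNA per cell cannot be told apart, and markers of several cell types differed in RNA. Over all genes 24.3% rose and 25.1% fell, so some calls are found in most lists of this kind. The shares of fibroblast and erythroid markers that rose, 16.7% and 20%, were under that of all genes. Cardiomyocyte markers summed to 1488359 to 1705082 normalized RNA reads in knockout hearts and 1700495 to 1997182 in wild-type hearts. Of these markers 4 of 7 fell, among them Tnni3 and Tnnt2 by 0.35 and 0.31 (limma adjusted p = 0.00348 and 0.00549). Myh6, the largest part of the sums, was at -0.25 and Actc1 at 0.16, and neither passed (limma adjusted p = 0.1 and 0.173). Of 6 endothelial markers 2 rose and 3 fell, with sums of 13231 to 15198 in knockout hearts and 14653 to 16645 in wild-type hearts. Cdh5 fell by 0.50 and Egfl7 rose by 0.53 (limma adjusted p = 1.10e-05 and 5.22e-05). Of 7 macrophage markers 3 rose and 1 fell, with sums of 2909 to 4032 in knockout hearts and 3092 to 3363 in wild-type hearts. Cd68 fell by 1.05 and C1qc rose by 0.67 (limma adjusted p = 1.16e-05 and 0.000761). In the list of smooth muscle and pericytes, of 6 genes, 3 rose and 1 fell, with sums of 9201 to 10809 in knockout hearts and 9452 to 12351 in wild-type hearts. Pdgfrb and Notch3 rose by 0.45 and 0.42 (limma adjusted p = 4.63e-05 and 8.83e-05). Of 6 fibroblast markers 1 rose, with sums of 13680 to 20294 in knockout hearts and 12588 to 18765 in wild-type hearts. Col1a2 rose by 0.49, while Tcf21, at 0.52, did not pass (limma adjusted p = 0.0201 and 0.0844). Of 5 erythroid markers 1 rose, with sums of 59348 to 89139 in knockout hearts and 44020 to 70795 in wild-type hearts. Both lymphocyte markers with a row, of 7 listed, fell, with sums of 149 to 256 in knockout hearts and 277 to 376 in wild-type hearts. The part of these differences in the histone result was not tested.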

How the data were processed

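Members, gene lists and tests were chosen with earlier results of these data known. The RNA and footprint tables deposited by the authors hold a normalized read signal per the file headers. The values show that it is gene counts over 1 size factor for each library. The authors' deposited log2 fold change and p-value columns were used only as an alternative. Their efficiency fold change had the opposite sign to the one computed here for most genes (4.67% the same) and was turned round. The submitters' processing notes name the GRCm38 build with STAR 2.7.1a, HTSeq and DESeq2, whose settings are not given in the sources used here. RNA libraries came from a kit that does not mark strand, per the labels' protocols. 9 per-heart efficiency columns were not used.

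Values were whole multiples of 1 step in each library (100% within 0.01 reads). Limma 3.58.1 (R 4.3.3) was fitted with a trend on log2(value + 1) over all genes with a mean of at least 10, with Benjamini-Hochberg adjustment and a threshold of 0.05. This scale understates the change of low genes. Efficiency was the genotype by assay interaction over 18 libraries, with no term for the heart. By the labels, RNA and footprint libraries with 1 number share a heart. Deviations from the genotype mean correlated at 0.208 to 0.502 within a heart over 8066 genes. Named are, per class, the 3 rows with most RNA signal and the 2 with the smallest adjusted p in RNA. Every row that fell in RNA or passed in another assay is also named. The 2 genes with the smallest adjusted p of each other list are named too, except in the erythroid and lymphocyte lists. Near-equal rows were defined after the data were seen, as were edgeR 4.0.16 and DESeq2 1.42.0 on recovered RNA reads. No 2 libraries of a group agreed within sampling noise (chi-square per degree of freedom at least 6.05). The fits were tested on simulated data.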

Additional observations from a re-analysis of the deposited data

Results flagged for a closer look

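In 78 groups of named genes looked at (4 or 5 hearts each), 5 held a heart whose gap to the others exceeded Dixon's critical value, and chance gives about 1 in 20. Hist1h2bc RNA was 580 normalized reads in knockout heart 6, against 456 to 471 in the other knockout hearts. Hist1h2bq and Hist1h2br RNA, 1 set of reads, was 242 in wild-type heart 2, against 224 to 225 in the other wild-type hearts. Wild-type heart 2 was also low in footprints of Hist1h1c, at 638 against 948 to 1000, and of Hist1h2bc, at 100 against 217 to 226.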

How the results depend on the processing

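The number of histone rows higher in RNA was 29 to 35 over the alternatives that keep every row, and the number lower in efficiency was 4 to 7, with none higher. The number lower in RNA was 1 in place of 2 with TMM factors, with edgeR or DESeq2 on whole reads and in the authors' deposited tables, and 1 to 2 with single hearts left out, through Hist1h2ak. The RNA median was 0.41 with quantile normalization and 0.41 to 0.56 with single hearts left out, lowest without heart 6. The H1 ratio of summed RNA, 1.65, was 1.96 without Hist1h1c. Over all genes, footprint calls were 2, but 0 with no filter, 6 with DESeq2 and in the authors' deposited table, and 0 to 3 with single hearts left out. Nbdy lost its footprint call without heart 1, 2 or 3 and with no filter on low values (adjusted p = 0.0978 to 0.194). Of 925 values of single genes under alternatives, 880 kept their side of the threshold, 23 gained a call and 22 lost one. The sign turned in 16, of 4 genes, all in footprints or efficiency and none past the threshold before or after. With the heart as a replicate block 7 histone rows were lower in efficiency, with Hist1h4h added, and no other call of a named gene changed. Few reads stood behind the H3 rows in RNA and the low copies in footprints.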
